A study of Rattus norvegicus with 12 samples.

Results

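Gene expression in the left ventricle was compared with that in whole blood of untreated rats. The comparison used the 6 vehicle arrays of a series of 12 arrays: 3 pools of left ventricle RNA and 3 pools of whole blood RNA, all labelled as vehicle control. The other 6 arrays, from rats given amiodarone, an antiarrhythmic drug, at 300 mg/kg daily by mouth for 10 days, served only as a second set of pools for the same contrast. All animals were male Sprague-Dawley (CD) rats, and the vehicle was methylcellulose. No transgene or deletion is named for any group. The labels give the age both as that at the start of dosing and as a later one, and do not list the animals in a pool or say whether heart and blood pools of one number share animals. The p-values therefore measure the spread between these pools. Heart RNA was extracted from tissue kept in RNAlater with a tissue kit, and blood RNA from PAXgene tubes with a blood kit. The arrays of each tissue lay on slides of their own. Tissue, slide and extraction kit cannot be told apart in this contrast.

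The ventricular wall is made mostly of cardiomyocytes by mass, with fibroblasts, endothelial cells, pericytes and resident macrophages between them. Cardiomyocytes contract through sarcomeres, release calcium from the sarcoplasmic reticulum at each beat, and make most of their ATP by oxidising fatty acids in a dense set of mitochondria. Whole blood RNA comes from young red cells that still hold RNA, from platelets, and from neutrophils, monocytes and lymphocytes. Red cell genes are controlled by GATA1 and KLF1, whereas many muscle genes are controlled by MEF2 and by serum response factor, which binds the CArG box.

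Stretches of RefSeq promoter sequence (build GRCr8) are shown for 8 genes that differed strongly between the tissues and that carry one of these motifs. They were picked after the matches were known. Each is the 250 bases before the annotated start, written 5′ to 3′ on the gene's strand, with the matches in capitals. The ventricle genes are Myl3 at chr8:119616844-119617093 (plus strand), Mybpc3 at chr3:97550811-97551060 (plus strand), Fhl2 at chr9:52954541-52954790 (minus strand), Tnni3 at chr1:78342321-78342570 (plus strand). They encode the ventricular essential light chain, the cardiac myosin binding protein C, a LIM protein of the sarcomere, and cardiac troponin I.
Myl3: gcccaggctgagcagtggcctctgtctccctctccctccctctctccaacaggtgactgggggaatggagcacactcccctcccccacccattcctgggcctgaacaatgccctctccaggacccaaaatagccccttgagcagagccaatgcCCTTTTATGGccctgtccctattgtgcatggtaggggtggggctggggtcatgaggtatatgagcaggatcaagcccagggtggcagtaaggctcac
Mybpc3: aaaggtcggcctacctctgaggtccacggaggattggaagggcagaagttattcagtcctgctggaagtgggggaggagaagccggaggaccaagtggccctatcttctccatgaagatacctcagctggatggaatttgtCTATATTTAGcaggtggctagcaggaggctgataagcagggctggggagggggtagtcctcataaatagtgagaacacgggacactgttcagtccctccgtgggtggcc
Fhl2: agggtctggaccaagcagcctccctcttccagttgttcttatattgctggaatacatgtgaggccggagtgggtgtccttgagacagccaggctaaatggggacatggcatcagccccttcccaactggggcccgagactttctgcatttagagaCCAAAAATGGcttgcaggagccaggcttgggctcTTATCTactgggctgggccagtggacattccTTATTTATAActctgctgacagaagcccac
Tnni3: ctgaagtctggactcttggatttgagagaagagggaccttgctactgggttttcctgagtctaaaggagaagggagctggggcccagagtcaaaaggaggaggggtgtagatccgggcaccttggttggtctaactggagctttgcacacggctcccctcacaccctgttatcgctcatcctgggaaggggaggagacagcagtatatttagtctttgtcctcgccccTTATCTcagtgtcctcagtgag
The capitals in Myl3 are a CArG box and those in Mybpc3 a MEF2 consensus. Fhl2 holds a CArG box, a reverse-strand AGATAA and a MEF2 consensus in that order. Tnni3 holds a reverse-strand AGATAA, the GATA motif.

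The blood genes are Rhd at chr5:152370950-152371199 (plus strand), Add2 at chr4:120054628-120054877 (plus strand), Hbb at chr1:167663722-167663971 (minus strand), Lyl1 at chr19:40359835-40360084 (minus strand). They encode the Rh blood group protein, the red cell form of adducin, beta globin, and a haematopoietic helix-loop-helix factor.
Rhd: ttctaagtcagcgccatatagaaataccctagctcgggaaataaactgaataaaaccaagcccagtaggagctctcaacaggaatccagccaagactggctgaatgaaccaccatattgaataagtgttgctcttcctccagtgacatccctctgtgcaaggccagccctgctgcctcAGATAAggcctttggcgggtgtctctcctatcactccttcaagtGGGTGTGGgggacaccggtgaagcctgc
Add2: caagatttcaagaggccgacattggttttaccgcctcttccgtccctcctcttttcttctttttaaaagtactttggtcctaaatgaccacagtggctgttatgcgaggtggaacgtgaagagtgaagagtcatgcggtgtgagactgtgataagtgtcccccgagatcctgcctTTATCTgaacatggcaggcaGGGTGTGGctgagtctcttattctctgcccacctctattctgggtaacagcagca
Hbb: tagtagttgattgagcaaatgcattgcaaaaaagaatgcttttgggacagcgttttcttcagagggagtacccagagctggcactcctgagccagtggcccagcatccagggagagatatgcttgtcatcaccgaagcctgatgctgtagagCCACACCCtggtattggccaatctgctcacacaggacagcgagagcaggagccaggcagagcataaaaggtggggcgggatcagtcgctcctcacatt
Lyl1: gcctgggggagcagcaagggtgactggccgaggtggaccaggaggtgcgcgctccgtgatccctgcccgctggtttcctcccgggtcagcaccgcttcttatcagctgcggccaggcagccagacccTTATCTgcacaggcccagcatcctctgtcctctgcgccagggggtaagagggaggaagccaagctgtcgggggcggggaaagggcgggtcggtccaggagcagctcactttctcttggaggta
Rhd holds AGATAA and, nearer the start, a reverse-strand CCACACCC, the motif that KLF1 binds. In Add2 both motifs lie on the reverse strand. Hbb holds CCACACCC on the gene's strand, and Lyl1 a reverse-strand AGATAA.

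Across the tested genes, 8383 of 10250 named genes had a promoter in the RefSeq table. Both strands were searched, and matches of different motifs shared a base in 11 of all 27457 promoters. AGATAA was present in 6.21% of the tested genes' promoters and in 10.0% of all promoters. It was present in 12.4% of the 852 promoters of genes called over 16-fold higher in blood, in 7.10% of the 634 of genes called over 16-fold higher in heart, and in 4.26% of the 940 of genes at a like level in both. The MEF2 consensus was present in 4.26% of the strong heart promoters, 2.58% of the strong blood promoters, 1.78% of all tested and 3.07% of all promoters. The CArG box was present in 2.05% of the strong heart promoters, in 12 of the 852 strong blood promoters, in 1.25% of the tested and in 1.50% of all promoters. For the same sets in the same order, CCACACCC was present in 2.84%, 3.99%, 3.10% and 2.84%, and AAGGTCA, a nuclear receptor half-site, in 3.79%, 2.58%, 2.49% and 3.77%. The median GC content of the strong blood promoters was 54.8%, against 59.6% for strong heart promoters and for all tested, and 52.0% for all promoters. The sets over 16-fold were taken on the plain difference and include genes not above background in the other tissue. These shares describe letters in a window, and their relation to GC content was not tested.

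Heart arrays were brighter than blood arrays. In vehicle heart 21798 to 25032 of 43379 spots were well above background, and in vehicle blood 14459 to 15548. The 75th percentile of signal, by which each array was scaled, was 143 ± 30.9 intensity units (SD, n = 3) in heart and 24.0 ± 2.80 (SD, n = 3) in blood. No spot was saturated on these 6 arrays. Across features measured on all 6 arrays, Pearson's r between arrays was 0.9922 to 0.9939 within heart, 0.9799 to 0.9903 within blood and 0.4985 to 0.5453 between the tissues, with features not being independent replicates.

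A level below is the log2 of a probe's signal over the 75th percentile of its array, so that 0 is that percentile. A difference is heart minus blood on this log2 scale. A probe counted as measured on an array where it was well above background. A feature, which is a named gene or an unnamed probe, was called when limma's test against a 2-fold difference gave p below 0.05 after Benjamini-Hochberg adjustment over 18858 features. Of these, 5343 (28.3%) were called higher in heart and 5032 (26.7%) higher in blood, together 55.0%. Among the 9535 features measured on all 6 arrays, 19.3% were called higher in heart and 35.1% higher in blood. A further 5911 features were measured on all 3 heart arrays and on no blood array, against 872 the other way. For such features only a lower bound of the fold is given, as "at least", from the dimmest signals that were well above background. Called differences over 16-fold numbered 1240 toward heart and 2080 toward blood. These counts use the plain difference with no bounds applied, so they include features not measured in the other tissue.

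The scaling sets where equality lies. The median difference over all tested features was 0.37 with the 75th percentile, 0.94 with array medians, 0.61 with quantile scaling, and -0.26 after normexp background correction. It was 2.59 when arrays were scaled by spike-in RNA and 2.93 with no scaling. The split of calls moved with it, from 5343 toward heart and 5032 toward blood to 7102 and 4150 with array medians, 11623 and 2038 with spike-in scaling and 12801 and 1888 with no scaling. Small differences therefore depend on the scaling, whereas the list medians of sarcomere, red cell, platelet and T cell genes given below are larger than each of these shifts. The size of these medians still depended on the processing. With normexp they were 7.02, -3.58, -3.06 and -2.38, in the same directions.

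**Figure D1:**
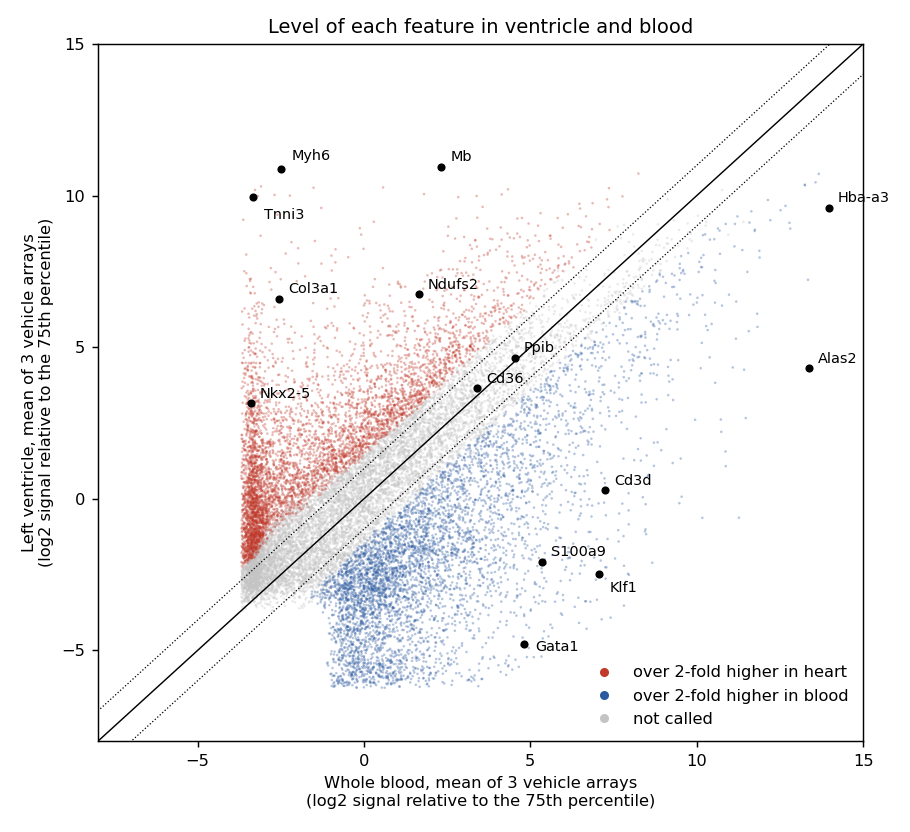
Each point is 1 of 18858 tested features, with its mean level in 3 vehicle blood arrays (x axis) and in 3 vehicle heart arrays (y axis), both as log2 signal over the 75th percentile of the array. Solid line, equal levels; dotted lines, 2-fold differences. Red points (5343) were called higher in heart, blue points (5032) higher in blood, and grey points were not called; the dense edges at the left and bottom are probes not above background in one tissue. Myh6 and Tnni3 stand at the upper left, Gata1 and Klf1 at the lower right, and Ppib and Cd36 near the line.

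Contractile genes formed the list with the highest median. Of 34 genes of the sarcomere list, 29 were tested, and 27 of these were called higher in heart and none in blood, with a median difference of 9.70, or 8.13 with unmeasured members at their bound. The exceptions were Nebl, nebulette, measured on 1 of 3 blood arrays, at 0.39 (SE 0.59), and Pdlim5, a Z-disc protein, at 0.59 (SE 0.29), whose other probe gave 5.80. Myh6 encodes the fast cardiac myosin heavy chain. Its levels were 11.10, 10.52 and 11.04 in the 3 heart pools and -1.99, -2.20 and -3.29 in the 3 blood pools, where it was on no array well above background. Myh6 was at least 4833-fold higher in heart (adjusted p = 2.0e-07). Myh7, the slow heavy chain, was at 10.33, 9.71 and 10.03 in heart and was not measured in blood, a difference of at least 2654-fold. Both probes lie on chromosome 15 in build rn4, Myh6 at 33044576 to 33044983 and Myh7 at 33073020 to 33073645. The genes share long stretches of sequence, and whether the probes tell them apart was not tested.

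The cardiac troponins and ventricular light chains named here were called higher in heart, whereas Tnni2, the fast skeletal troponin I, was called higher in blood and is described with the skeletal muscle markers. Tnni3, cardiac troponin I, was at 10.12, 9.77 and 9.93 in heart and at -3.39, -3.25 and -3.41 in blood, at least 2507-fold higher in heart (adjusted p = 8.5e-08). Myl3, the essential light chain whose promoter is shown above, was at least 3225-fold higher, and Myl2, the regulatory light chain, at least 1043-fold. Mybpc3 was at least 463-fold and Actc1, cardiac alpha actin, at least 3053-fold higher. None of these 5 genes overlapped between the tissues on any array. The share of all features without overlap was not counted, and these genes were chosen with earlier results known. Tnnt2, cardiac troponin T, was at 10.21, 9.68 and 10.10 in heart and at -3.35, -0.22 and -3.12 in blood, where the second pool measured it. Its difference was 12.23 (SE 0.78). Tnnc1, the troponin C that cardiac and slow muscle share, was measured on all 6 arrays, at 10.46, 10.00 and 10.34 in heart against 0.28, 0.55 and 0.89 in blood, a difference of 9.70 (SE 0.22). Cryab, the small heat shock protein that binds desmin and titin, was at least 2970-fold higher in heart.

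**Figure D2:**
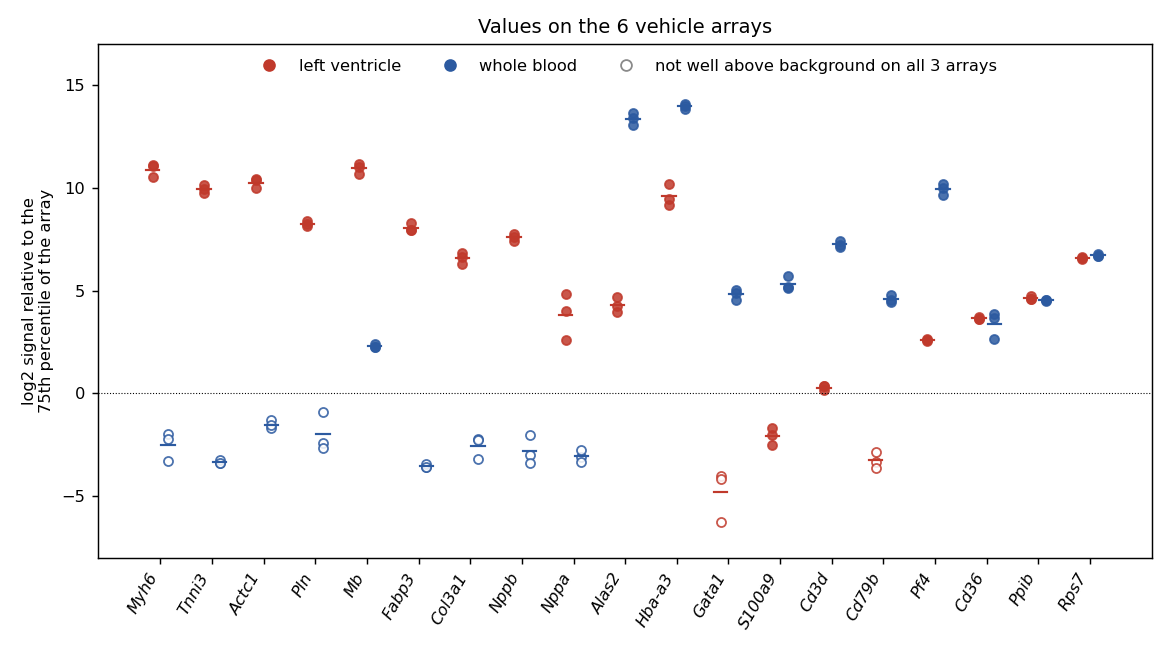
Level of 19 genes on each of the 6 vehicle arrays, as log2 signal over the array's 75th percentile. Each point is 1 pool, bars are means of 3 pools, and open points mark a tissue in which not all 3 arrays were well above background. Myh6, Tnni3 and Actc1 separate by over 10 log2 units, Alas2 by 9.07 in the other direction, and Cd36, Ppib and Rps7 overlap or nearly meet.

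Genes that move calcium and carry current followed the same direction with smaller differences. Of 17 tested calcium cycling genes 13 were called higher in heart and 1 in blood, with a median of 5.10. Pln, phospholamban, which restrains the calcium pump, was at 8.40, 8.16 and 8.22 in heart and at -0.89, -2.42 and -2.63 in blood, where 1 of the 3 pools measured it, a difference of 10.24 (SE 0.44). Atp2a2, the pump itself, was at 5.46, 5.39 and 5.63 against 2.78, 2.83 and 3.07. Its difference was 2.60 (SE 0.16) by its brightest probe, which was measured on all blood arrays. The 2 other Atp2a2 probes gave 2.61 and 10.45, so the size of the difference depends on the probe. Ryr2, the calcium release channel, was at least 124-fold higher in heart by its brightest probe, with 1 of 5 other probes of opposite sign. Hrc, a histidine-rich calcium binding protein of the reticulum, was 8.80 (SE 0.16) higher. The member called higher in blood was Sln, sarcolipin, at least 42.5-fold by its brightest probe, but its other probe gave 2.69, so no direction can be given for Sln.

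Of 26 tested genes of cardiac ion channels and cell junctions 22 were called higher in heart and none in blood, with a median of 4.83, or 3.48 with unmeasured members at their bound and 2.94 with normexp. Of the 26, 18 were on no blood array well above background. Gja1, the main connexin of ventricular muscle, was at 5.86, 5.73 and 5.78 in heart and not measured in blood, a difference of at least 141-fold. Cacna1c, the L-type calcium channel, was at least 9.94-fold higher, and Cdh2, N-cadherin, at least 19-fold. Kcnj3, an atrial potassium channel subunit, was at a like level in both tissues, at -0.56 (SE 0.18).

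Of 15 tested cardiac transcription factors 10 were called higher in heart and 1 in blood. Their median was 2.52, or 1.61 with unmeasured members at their bound, and 8 were on no blood array well above background. Among the 4 measured on all 6 arrays, 2 were called higher in heart and 1 in blood. With normexp the median was 0.57 and 6 were called higher in heart. Nkx2-5, which specifies cardiac muscle, was at 3.20, 2.96 and 3.27 in heart and at least 23-fold higher there. Gata4 was at least 23-fold and Gata6 at least 18-fold higher. The member called higher in blood was Hand1, at -3.93 (SE 0.33), while its relative Hand2 was at least 6.38-fold higher in heart. Esrra, a nuclear receptor that drives mitochondrial genes, was 3.21 (SE 0.18) higher in heart.

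Most tested genes of oxidative phosphorylation, the citric acid cycle and fatty acid use were called higher in heart, and most of these were also measured in blood. Glycolysis genes were more mixed. Of 40 tested oxidative phosphorylation genes 39 were called higher in heart, with a median of 4.06, and Ndufa1 was not called, at -0.47. For example, Atp5f1c, a subunit of ATP synthase, was at 7.22, 7.06 and 7.21 in heart against 2.03, 1.73 and 1.72 in blood, a difference of 5.34 (SE 0.16). Uqcrfs1, the Rieske protein of complex III, differed by 5.18 (SE 0.17). Cox8b, the muscle form of a cytochrome oxidase subunit, was at least 1624-fold higher in heart. Of 27 genes of the citric acid cycle and pyruvate use 25 were called higher in heart, with a median of 5.29, and Dlst (0.87) and Pdk4, which was on no blood array well above background, were not called. Idh2, mitochondrial isocitrate dehydrogenase, differed by 6.60 (SE 0.19).

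Of 30 genes of fatty acid uptake and oxidation 29 were called higher in heart, with a median of 5.16. Fabp3, which binds fatty acids in heart muscle, was at 8.27, 7.97 and 7.93 in heart and was at least 678-fold higher. Cpt1b, the muscle gate of fatty acid entry into mitochondria, differed by 8.66 (SE 0.23) by its brightest probe, with 2 of 3 blood arrays measuring it. The other Cpt1b probe gave 0.33, so the size of the difference depends on the probe. Cd36, the fatty acid translocase, was the exception. It was at 3.62, 3.71 and 3.63 in heart and at 2.65, 3.85 and 3.68 in blood, so the tissues overlapped. Its difference was 0.26 (95% interval -0.48 to 1.01). Of 26 tested glycolysis genes 19 were called higher in heart and 3 in blood, the latter being Pfkl, Pygl and Slc16a3. Ckmt2 and Ckm, the mitochondrial and cytosolic muscle creatine kinases, were at least 2589-fold and at least 1503-fold higher in heart. Mb, myoglobin, was at 11.14, 10.69 and 11.01 in heart against 2.26, 2.42 and 2.28 in blood, a 396-fold difference.

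Among named genes measured on all 6 arrays, those with the largest differences toward heart also included Asb2 (9.05, SE 0.19), a ubiquitin ligase subunit, and Rpl3l (8.84, SE 0.18), the muscle form of ribosomal protein L3. Slc25a4, the ATP and ADP exchanger of heart mitochondria, differed by 8.25 (SE 0.20), and Itga7, the laminin receptor of muscle, by 8.26 (SE 0.18). Rpl3 itself, the general form, was called higher in blood, at -2.10 (SE 0.17), although with no scaling or spike-in scaling it was higher in heart.

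The ventricle samples also carried transcripts of its other cells. A bulk array cannot tell fewer cells of a type from less RNA in each. Of 14 tested fibroblast markers 11 were called higher in heart and none in blood, with a median of 4.21, or 3.31 with unmeasured members at their bound. Dcn, decorin, was at 5.77, 6.16 and 6.00 in heart, at least 161-fold higher, and Col3a1 was at least 248-fold higher. Of 31 extracellular matrix genes 22 were called higher in heart and 3 in blood. Their median was 4.73, or 3.31 with unmeasured members at their bound, and 19 were on no blood array well above background. Among the 9 measured on all 6 arrays, 1 was called higher in heart and 3 in blood, with a median of -0.39. The 3 higher in blood were Eln, Col4a1 and Col18a1, although the mean of the Col4a1 probes was higher in heart. With no scaling Col4a1 turned to 0.88 and Col18a1 to 0.14. For Col1a1 the brightest probe gave -0.38 (SE 0.18), with heart at 3.56, 3.85 and 3.99 and blood at 4.06, 4.33 and 4.15, but another probe gave 9.32, so the probes disagree.

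Of 20 tested endothelial markers 12 were called higher in heart and 3 in blood, with a median of 3.18, or 1.18 with unmeasured members at their bound. On no blood array well above background were 12 of the 20. Among the 6 measured on all 6 arrays, 2 were called higher in heart and 3 in blood, with a median of -0.96. With normexp the list median was 0.53, with 8 called higher in heart and 1 in blood. Nos3, endothelial nitric oxide synthase, was at least 19-fold higher in heart, and Fabp4 at least 40.4-fold. Pecam1, which platelets and leukocytes also make, was the strongest toward blood, at -2.23, -1.78 and -2.18 in heart against 1.05, 1.04 and 0.98 in blood. The others were Sox17 and Sox18, at -1.68 and -1.43, which lost their call when single pools of either tissue were left out and were higher in heart with no scaling. Vwf, made by endothelium and megakaryocytes, was not called, at -0.50 (SE 0.21). Of 10 smooth muscle and pericyte markers 9 were called higher in heart and Notch3 in blood, which turned to 0.10 with no scaling. Of 11 resident macrophage markers 4 were called higher in heart (36.4%) and 3 in blood (27.3%), near the 28.3% and 26.7% of all features. Of the 5 measured on all 6 arrays 0 were called higher in heart and 3 in blood. C1qa, a complement chain of tissue macrophages, was 3.97 (SE 0.23) higher in heart, with 1 of 3 blood arrays measuring it. Cd68, Adgre1 and Csf1r, which monocytes also express, were called higher in blood. With no scaling Adgre1 turned to 0.26 and Csf1r to 0.90, and Csf1r was 0.56 with spike-in scaling and lost its call when either of 2 pools of each tissue was left out (-1.50 without blood pool 1).

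Markers of neighbouring tissues were checked in the ventricle samples. Of 10 tested atrial markers 8 were called higher in heart, with summed levels of 9.99 to 10.11 in heart arrays against 2.79 to 3.16 in blood arrays. Nppa, atrial natriuretic peptide, was at 2.60, 4.83 and 4.02 in heart and not measured in blood, at least 36-fold higher. Myl7, the atrial regulatory light chain, was at 7.07, 7.54 and 4.73 in heart against 0.69, 0.17 and -0.36 in blood, so the third heart pool was lower than the others. Myl4, the atrial essential light chain, did not follow that order, at 9.69, 9.37 and 9.72 in heart. How much atrial tissue the samples held was not tested. Nppb, brain natriuretic peptide, was at 7.42, 7.63 and 7.78 and at least 498-fold higher in heart. Of 6 tested skeletal muscle markers, from 16 with a probe, 3 were called higher in heart and 2 in blood (Atp2a1 and Tnni2), and their median of 1.15, or 0.39 with unmeasured members at their bound, turned to -0.40 with normexp. Tnni2 was at -2.01 (SE 0.22) and turned to 0.54 with no scaling and 0.20 with spike-in scaling. Acta1, skeletal alpha actin, was at least 115-fold higher in heart. Of 4 tested adipocyte markers only Fabp4 was called.

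Whole blood was marked by red cell genes. Of 26 tested red cell markers 22 were called higher in blood and 1 in heart, with a median of -6.96, or -6.44 with unmeasured members at their bound. Alas2, the erythroid enzyme of the first step of haem synthesis, was at 13.06, 13.41 and 13.63 in blood and at 4.23, 3.96 and 4.71 in heart, a 536-fold difference (adjusted p = 2.3e-07). Rhd was at 9.02, 9.51 and 10.10 against -0.11, -0.20 and 0.51, and Add2 at 9.06, 9.42 and 9.95 against -0.29, -0.24 and 0.09. Both differed by over 9 log2 units. Epb42, which ties the band 3 exchanger to the membrane skeleton, differed by -9.90 (SE 0.37), Ahsp, the chaperone of alpha globin, by -9.31 (SE 0.41), and Slc4a1, the band 3 anion exchanger, by -7.76 (SE 0.37).

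The adult globin genes gave smaller differences than these. Hba-a3, an alpha globin, was at 13.85, 13.97 and 14.07 in blood and at 9.46, 9.17 and 10.17 in heart, a difference of -4.37 (SE 0.27). Hbb differed by -4.68 (SE 0.21), with heart pools at 5.85, 5.52 and 5.93. Globins annotated as embryonic or fetal stood further apart. Hbg1 was at 5.03, 5.41 and 5.39 in blood and at -2.82, -3.02 and -2.86 in heart, and Hbe1, at 3.24, 3.70 and 3.65 in blood, was at least 182-fold higher there. Globin genes resemble one another, and cross-hybridisation between them was not tested.

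Red cell transcripts were thus measured in the ventricle samples as well. The summed level of the red cell markers was 9.09 to 9.45 in heart arrays and 14.39 to 15.02 in blood arrays, and 18 of 26 were measured on all heart arrays. Gata1 and Hbe1 were on no heart array well above background. The third heart pool was the highest of the 3 for Hba-a3, Alas2, Rhd, Add2 and Slc4a1, and their part in other differences of that pool was not tested. Among the red cell markers, Tfrc, the transferrin receptor, was called higher in heart (2.20, SE 0.18), and Gypc (0.63) and Tmod1 (-0.52) were not called.

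Of 22 tested genes of haem synthesis and iron 10 were called higher in blood and 4 in heart, with a median of -1.24 that turned to 1.32 with no scaling and 0.98 with spike-in scaling. The 4 higher in heart were Alas1, Cpox, Hmox2 and Tfrc. Cpox was on no blood array well above background, with a difference of at least 1.76-fold, and lost its call when either of 2 pools of each tissue was left out (1.96 without blood pool 1). Alas1, the general form of that first enzyme, was at 8.80, 8.50 and 8.61 in heart against 2.84, 2.81 and 3.38 in blood, the reverse of Alas2. Ftl1, the ferritin light chain, differed by -6.12 (SE 0.20), and Fech, which inserts iron into haem, by -4.85 (SE 0.17).

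Platelet and red cell genes were the lists with the lowest medians, in an order that depended on the processing. Of 16 tested platelet markers 15 were called higher in blood, with a median of -7.36, or -5.85 with unmeasured members at their bound, and Vwf was the exception. With normexp the medians were -3.06 for platelet and -3.58 for red cell markers. Pf4, platelet factor 4, was at 9.64, 10.01 and 10.21 in blood and at 2.63, 2.62 and 2.57 in heart. Gp9, part of the von Willebrand receptor, differed by -8.60 (SE 0.25), Treml1 by -8.33 (SE 0.27), and Nfe2, the factor of platelet and red cell maturation, by -8.86 (SE 0.23). Ppbp was on no heart array well above background and was at least 54-fold higher in blood.

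All 19 tested T cell markers were called higher in blood, with a median of -6.05, or -5.32 with unmeasured members at their bound. Cd3d, a chain of the T cell receptor complex, was at 7.12, 7.21 and 7.43 in blood and at 0.34, 0.35 and 0.14 in heart, a 126-fold difference. Cd3e was at 1.88, 1.86 and 1.65 in blood and at least 55-fold higher there, and Cd8a differed by -5.36 (SE 0.20). Of 10 tested B cell markers 8 were called higher in blood, with Blnk at -0.52 and Fcer2 at -1.18 not called. Cd79b, of the B cell receptor, was at 4.43, 4.54 and 4.80 in blood and differed by -7.85 (SE 0.23), with 2 of 3 heart arrays measuring it. Of 13 natural killer markers 12 were called higher in blood, among them Gzma (-5.90, SE 0.33) and Prf1, perforin (-4.80, SE 0.25). Xcl1 was not called, at 0.31 with 2 of 3 blood arrays measuring it.

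Of 18 tested neutrophil markers 16 were called higher in blood, with a median of -4.87. S100a9, which forms calprotectin with S100a8, was at 5.18, 5.12 and 5.73 in blood and at -2.50, -2.02 and -1.70 in heart, a 171-fold difference. S100a8 differed by -7.48 (SE 0.35), and Csf3r, the receptor for granulocyte growth factor, was at least 18.0-fold higher in blood. Ncf1 was called higher in heart, at 1.88, and Lcn2 was not called, at 1.22 with 2 of 3 blood arrays measuring it. Of 17 monocyte markers 12 were called higher in blood and none in heart, with a median of -2.51 that came to 0.042 with no scaling. Lyz2, lysozyme, differed by -3.99 (SE 0.21). Of 10 eosinophil, basophil and mast cell markers 5 were called higher in blood, with a median of -0.91 that turned to 1.31 with spike-in scaling and 1.65 with no scaling.

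**Figure D3:**
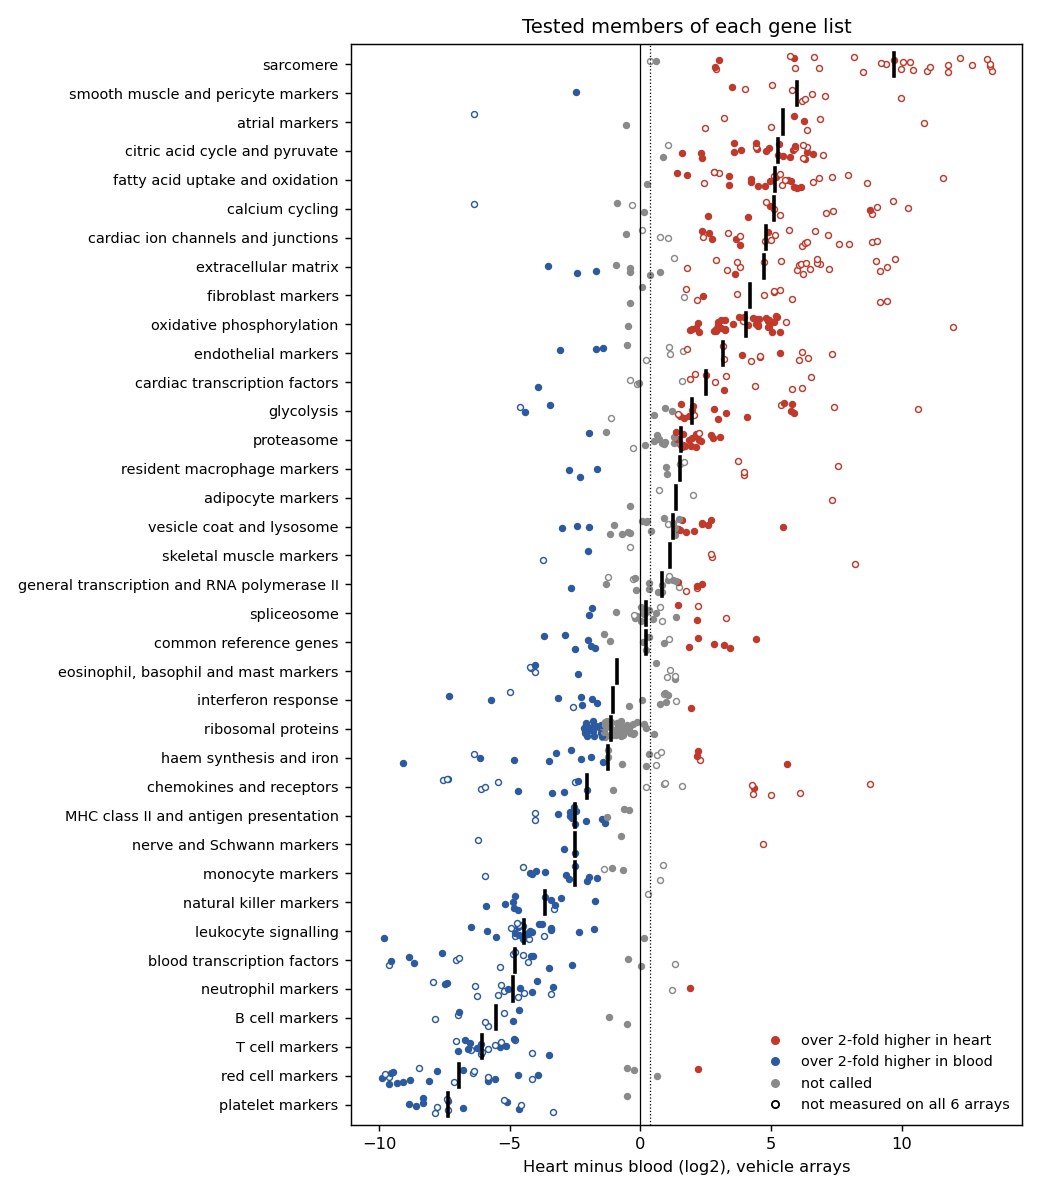
Difference between heart and blood (x axis, log2, vehicle arrays) for each tested member of 37 gene lists, ordered by their median (black bar). Red points were called higher in heart, blue points higher in blood, grey points were not called, and open points were not measured on all 6 arrays; the dotted line is the median of all tested features, 0.37. Sarcomere genes lie furthest to the right, with a median of 9.70, and platelet markers furthest to the left, with a median of -7.36.

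Genes of leukocyte signalling were higher in blood in 28 of 29 tested cases, with a median of -4.44, and Cd48 was not called, at 0.13. Ptprc, the CD45 phosphatase of all leukocytes, was at 4.22, 4.40 and 4.11 in blood and at -2.19, -2.43 and -2.08 in heart. Cd52, a lymphocyte surface protein, was at 10.40, 10.73 and 11.48 against 0.99, 0.71 and 1.52. Coro1a, the coronin of leukocytes, differed by -5.51 (SE 0.16). Of 19 tested blood transcription factors 16 were called higher in blood and none in heart. Gata1 was at 4.55, 4.87 and 5.05 in blood and on no heart array well above background, at least 417-fold higher in blood (adjusted p = 5.9e-06). Klf1 was at 6.71, 7.05 and 7.43 in blood and at -2.56, -2.65 and -2.25 in heart, a 749-fold difference.

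Of 15 tested genes of MHC class II and antigen presentation 12 were called higher in blood and none in heart, with a median of -2.48 that came to 0.071 with no scaling. RT1-Da, a class II chain, differed by -2.70 (SE 0.16), and Ciita, the class II activator, measured on 1 of 3 heart arrays, by -4.04 (SE 0.23). Of 18 tested interferon response genes 9 were called higher in blood and 1 (Bst2) in heart, with a median of -1.05 that turned to 1.50 with no scaling and 1.16 with spike-in scaling. Rsad2, viperin, was at 8.61, 8.87 and 9.32 in blood and at 1.52, 1.80 and 1.49 in heart, and Irf7 differed by -5.72 (SE 0.23). Ifit2, measured on 2 of 3 blood arrays, at 1.38, is a member of the same list that was not called.

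Chemokine genes were called in both directions. The list's median of -2.05 turned to 0.50 with no scaling and 0.16 with spike-in scaling. Of 23 tested chemokines and receptors 12 were called higher in blood (52.2%, against 26.7% of all features). Toward heart 6 were called (26.1%), near the 28.3% of all features. The 6 were Cxcl12, Ccl21, Ackr3, Cx3cl1, Ccl2 and Cxcl11, of which all but the receptor Ackr3 are ligands. Cxcl12 was at 5.15, 5.26 and 5.22 in heart and at least 94-fold higher there. Those higher in blood included the receptor Cxcr5, at least 54-fold, and the platelet and T cell ligands Pf4 and Ccl5, the latter at -4.68 (SE 0.22).

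Some of the largest differences toward blood lay outside the lists. Exosc2, a subunit of the RNA exosome, was at 9.92, 10.08 and 10.50 in blood against -0.79, -0.73 and -0.37 in heart. Alox15, a lipoxygenase of maturing red cells and other blood cells, differed by -9.47 (SE 0.40), Pim1, a kinase induced by cytokines, by -9.64 (SE 0.26), and the protein Prp15 by -10.47 (SE 0.21). Among genes measured on no heart array, Dlk2 was at least 923-fold, the T cell adaptor Grap2 at least 541-fold, Vom2r45, named as a vomeronasal receptor, at least 652-fold and Olr1523, named as an olfactory receptor, at least 635-fold higher in blood. Which transcripts these probes bind was not tested. Scn10a, a sodium channel of sensory neurons, was at 0.86, 1.30 and 0.34 in blood and at least 28-fold higher there. It was 1 of the 3 nerve markers called higher in blood among 5 tested, against 26.7% of all features. Another of the 5 was called higher in heart, at 4.68 and at least 9.34-fold, and was not measured in blood. The nerve list's median of -2.51 came to 0.045 with no scaling.

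Many proteins exist in a muscle form and a blood or general form. Of 45 listed pairs of related proteins, 39 had both members tested. Most pairs were listed with the muscle, heart or general member first. The first member had the higher difference in 37 pairs. In 17 pairs the first member was called higher in heart and the second higher in blood. In 8 pairs only the first was called, in 7 both were called higher in heart, in 4 only the second was called, higher in blood, and 3 followed none of these patterns. The choice of pairs favours this outcome, so the counts are a description.

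Ckmt2 and Ckmt1 are both mitochondrial creatine kinases. Ckmt2 was on no blood array well above background, with its bound given above, and Ckmt1 differed by -4.90 (SE 0.17). Pfkm and Pfkl, the muscle and liver phosphofructokinases, differed by 5.76 (SE 0.21) and -4.42 (SE 0.19). Of the lactate carriers, Slc16a1 was at least 15.5-fold higher in heart and Slc16a3 differed by -3.46 (SE 0.16). In structural proteins the same split was seen. Myh9, the non-muscle myosin of platelets and leukocytes, was called higher in blood at -2.82 (SE 0.17). Coro6 was at least 7.24-fold higher in heart while Coro1a was higher in blood, and Eef1a2, the muscle and nerve form of a translation factor, was at least 228-fold higher in heart while Eef1a1 was at -1.75 (SE 0.32), a value that turned positive with no scaling or spike-in scaling and lost its call when either of 2 pools of each tissue was left out (-1.47 without heart pool 1). Pairs in which both were higher in heart included Ldhb (5.88) and Ldha (3.28), and Slc2a4 (5.80) and Slc2a1 (1.55), the insulin-regulated and general glucose carriers. In the amiodarone arrays Ldhb (5.61) and Slc2a4 (4.75) kept their call, whereas Ldha (1.24) and Slc2a1 (1.11) were not called. Stom and Stoml2 went against the order in which they were listed. Stom, measured on 2 of 3 heart arrays, was at -4.57 (SE 0.23) and Stoml2 at a like level in both tissues (0.08, SE 0.14).

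**Figure D4:**
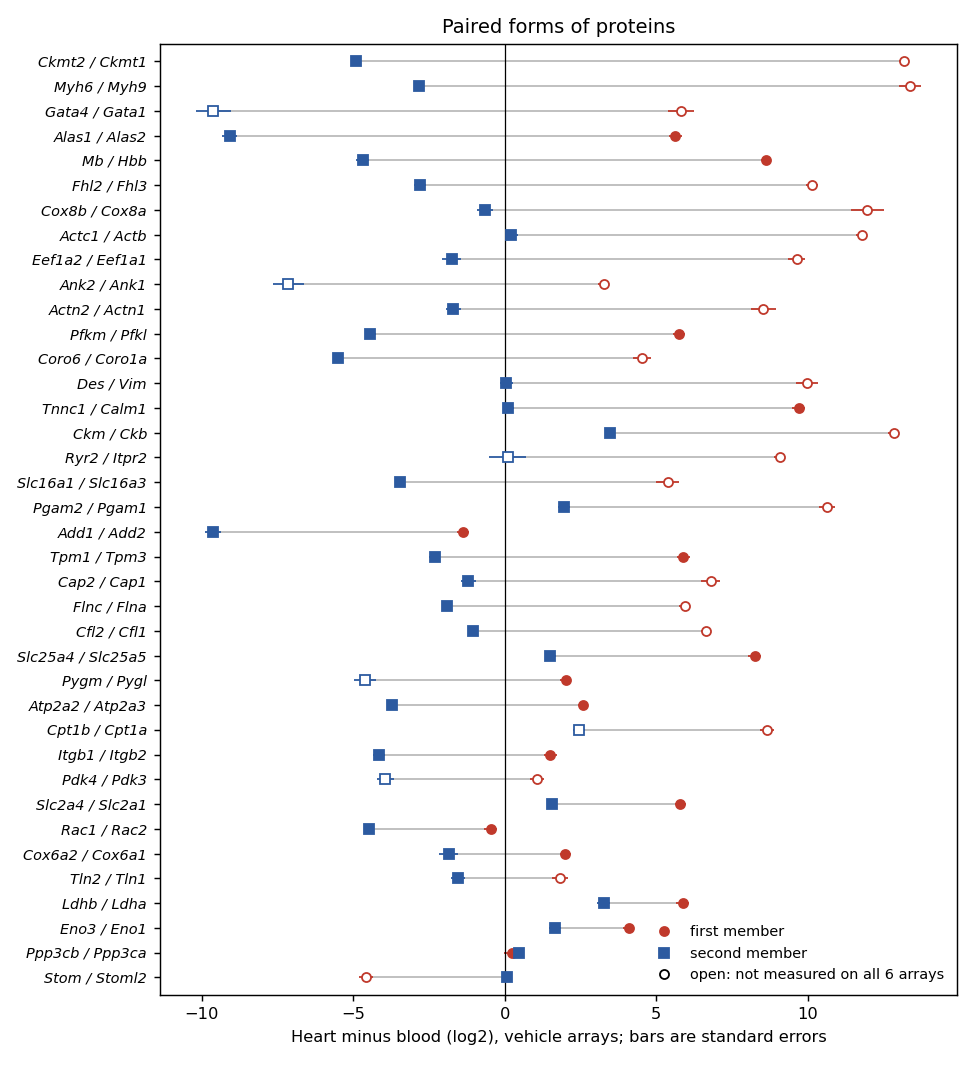
Difference between heart and blood (x axis, log2, vehicle arrays) of both members of 38 of the 39 pairs of related proteins, ordered by the gap between them. Circles are the first and squares the second member named, bars are standard errors, and open symbols were not measured on all 6 arrays. In 36 of the pairs drawn the circle lies to the right of the square.

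A like level in both tissues was recorded where the 95% interval of the difference lay within 1 log2 unit on either side of 0, which held for 1660 of the 9535 features measured on all 6 arrays (17.4%). The spliceosome list held the largest share of such genes among the lists of general functions, 11 of 23 tested, with a median of 0.23. Only members measured on all 6 arrays could count, which were 18 of the 23. Snrpf, a core protein of the spliceosome, was at 5.47, 5.43 and 5.28 in heart and at 5.39, 5.31 and 5.44 in blood, and its difference was 0.01 (95% interval -0.34 to 0.36). Ppib, cyclophilin B, was at 4.61, 4.72 and 4.60 against 4.50, 4.56 and 4.54. The first overlapped fully between the tissues, and the second was higher in every heart pool by a small margin (0.11, SE 0.14).

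Like levels were also recorded for 4 of 21 genes of RNA polymerase II and general transcription, among them Med14 and Polr2g, for 5 of 29 vesicle coat and lysosome genes, among them Snx2 and Vps26a, and for 1 of 32 proteasome genes, Psma6. In these lists 15, 28 and 30 members were measured on all 6 arrays. Of the proteasome genes 19 were called higher in heart and 1, Psmd4, higher in blood, with a median of 1.56. Psmd4 turned to 0.59 with no scaling and 0.25 with spike-in scaling. Of 60 ribosomal protein genes, all measured on all 6 arrays, 18 were called higher in blood (30.0%, against 35.1% of all features measured on all 6 arrays), none in heart and 9 were at a like level. The calls toward blood were 1 with array median scaling, 6 with quantile scaling and 0 with normexp, and 27 were called higher in heart with no scaling. The list had a median of -1.13 that turned to 0.22 with normexp, 1.09 with spike-in scaling and 1.43 with no scaling. Rps7 was at a like level (-0.14, SE 0.14). The like-level shares of the ribosomal and vesicle lists were near the 17.4% of all features measured on all 6 arrays.

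Of 19 tested genes often used to normalise expression 6 were called higher in heart (31.6%), 6 higher in blood (31.6%) and 3 were at a like level. Over all features the shares called were 28.3% and 26.7%, near those of the reference genes. Their counts toward heart and blood were 9 and 2 with normexp and 11 and 0 with no scaling. Sdha, a subunit of succinate dehydrogenase, was 4.41 (SE 0.21) and Hprt1 3.20 (SE 0.19) higher in heart. B2m, which accompanies class I MHC, was at -2.48 (SE 0.23), Rplp0 at -1.98 (SE 0.18) and Ubb at -3.68 (SE 0.18), whereas Rplp0 was higher in heart with no scaling or spike-in scaling and B2m with no scaling. Actb was at 0.22 (SE 0.21) by its brightest probe and at -2.19 by its other one.

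The same contrast in the amiodarone arrays used other pools. There 5112 features (27.1%) were called higher in heart and 4702 (24.9%) higher in blood. Calls in both sets numbered 4002 toward heart, which is 74.9% of the vehicle and 78.3% of the amiodarone calls, and 3917 toward blood, which is 77.8% and 83.3%. Opposite calls numbered 1 and 5. The blood arrays of the amiodarone group were brighter, with 20625 to 21245 spots well above background. The part of brightness and of the drug in features called in one set alone was not tested.

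In these other pools the list medians, with no bounds applied, were 10.39 for the sarcomere, 3.90 for oxidative phosphorylation, 4.88 for fatty acid genes, -5.28 for red cell, -7.55 for platelet and -6.67 for T cell markers. Mb differed by 9.67, Alas2 by -10.43 and Cd3d by -7.40. Flna, filamin A, differed by -1.89 (SE 0.16) in vehicle arrays, a value that turned to 0.67 with no scaling and 0.32 with spike-in scaling. Its levels in the amiodarone blood pools were 4.98, 4.73 and 10.93, so the third pool stood apart and no difference is given for that set. Cd36 differed by 0.26 in vehicle and 3.33 in amiodarone arrays, and the difference between the sets was not tested.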

How the data were processed

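RNA was labelled with a single dye and hybridised to Agilent rat arrays, 1 for each pool. The deposited scanner files hold the intensity of each spot as processed by Agilent Feature Extraction 9.5.1.1, per the file headers, after background subtraction and detrending and without scaling between arrays. They also hold other columns, which are flags for well above background, outlier and saturation, per the file headers. The authors normalized the 2 tissues separately, per the series' design text, so their deposited values were not used here.

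Log2 intensities of 43379 non-control spots (41012 probes) were scaled by the 75th percentile of each array, outlier spots were dropped and spots of a probe averaged. Symbols came from RefSeq GRCr8 by accession (16336 probes), symbol (3735) or synonym (1099), and 19842 probes stayed unnamed. A probe was tested if every array of 1 tissue or the other measured it well above background, with the brightest passing probe for each gene. limma 3.58.1 in R 4.3.3 (files read with data.table, version 1.17.8) was fitted to the 6 vehicle arrays, with the test against a 2-fold difference (treat), two-sided, and Benjamini-Hochberg adjustment over all features. The number of arrays limits the precision, and an exact permutation test of 3 against 3 cannot go below p = 0.1. The limma step was tested on simulated data. Bounds set the mean of the measured tissue against the higher of the probe's own value and the dimmest signal well above background on each array of the other.

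The members, lists, pairs and motifs were chosen with earlier results of these data known. Named genes were the 10 largest differences on all 6 arrays and the 10 largest bounds per direction, up to 4 called members per list, all pairs, fixed cardiac and blood markers, and 3 like-level genes per general list. Genes named outside that rule were chosen after their values were seen: Ackr3, Adgre1, Atp2a1, B2m, Blnk, Bst2, Ccl2, Ccl21, Cd48, Cd68, Cd8a, Col18a1, Col1a1, Col4a1, Cpox, Csf1r, Cx3cl1, Cxcl11, Cxcl12, Dlst, Eln, Fcer2, Gypc, Gzma, Hand1, Hba-a3, Hbe1, Hbg1, Hmox2, Ifit2, Kcnj3, Lcn2, Myl2, Myl7, Ncf1, Ndufa1, Nebl, Notch3, Pdlim5, Pecam1, Psmd4, Sln, Sox17, Sox18, Tfrc, Tmod1, Tnni2, Treml1, Ubb, Vwf and Xcl1. A few genes that the rule or these lists hold are not reported here. Alternatives covered background correction, scaling, filters, probe choice, slide and replicate blocks, thresholds and leaving out each array. Array positions are those of build rn4 in the files.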

Additional observations from a re-analysis of the deposited data

How the results depend on the processing

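With no scaling, 12801 features were called higher in heart, 1888 higher in blood and 683 were at a like level, and with spike-in scaling 11623, 2038 and 267. With only probes measured on all 6 arrays 1910 were called higher in heart, and with no filter on dim probes 18162 higher in blood. The test against a 4-fold difference called 2784 in heart and the plain limma test 8572. Like levels numbered 2775 with normexp and 182 within limits of 0.5. Leaving out each array gave 4921 to 5498 features higher in heart, 4803 to 5015 higher in blood and 1335 to 1732 at a like level. With the slide as a random block (consensus correlation -0.0446) the calls were 5388 and 5045.

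Same-numbered heart and blood pools did not deviate together (correlations -0.0445, 0.00229 and 0.0154). Deviations in unlike tissues need not go together in one animal, so this cannot tell whether the pools share animals. The replicate block gave 5218 features higher in heart, 4938 higher in blood and 1453 at a like level, and 140 of the 143 called genes named in the text kept their call.

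Directions that turned are listed by setting. With no scaling the values were Adgre1 0.26, B2m 0.071, Col18a1 0.14, Col4a1 0.88, Csf1r 0.90, Eef1a1 0.80, Flna 0.67, Notch3 0.10, Psmd4 0.59, Rpl3 0.46, Rplp0 0.57, Sox17 0.88, Sox18 1.13 and Tnni2 0.54. The list medians were then MHC class II 0.071, chemokines 0.50, eosinophil, basophil and mast cells 1.65, haem and iron 1.32, interferon 1.50, monocytes 0.042, nerve 0.045 and ribosomal proteins 1.43. With spike-in scaling they were Col4a1 0.53, Csf1r 0.56, Eef1a1 0.46, Flna 0.32, Psmd4 0.25, Rpl3 0.12, Rplp0 0.23, Sox17 0.54, Sox18 0.78 and Tnni2 0.20, and the medians of chemokines 0.16, eosinophil, basophil and mast cells 1.31, haem and iron 0.98, interferon 1.16 and ribosomal proteins 1.09. With normexp the medians of ribosomal proteins (0.22) and skeletal muscle (-0.40) turned. With only probes measured on all 6 arrays those of adipocyte (-0.39), endothelial (-0.97), matrix (-0.39), resident macrophage (-1.65) and skeletal muscle (-2.02) lists turned, as did Ryr2 (-0.62, another probe). With no filter the adipocyte (-1.71) and skeletal muscle (-1.71) medians turned. The mean of a gene's probes turned Col4a1 (3.22) and Sox18 (1.19). In the amiodarone arrays Sox17 (1.43), Sox18 (1.89) and the medians of reference genes (-0.30), haem and iron (0.084) and spliceosome (-0.45) turned. The causes were not tested.

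Of 143 called genes named in the text, 138 kept their call whichever array was left out. Cpox fell to 1.96 (without blood pool 1), Csf1r was -1.50 (without blood pool 1), Eef1a1 -1.47 (without heart pool 1), Sox17 -1.52 (without blood pool 2) and Sox18 -1.33 (without blood pool 2), each past no threshold there. The blood arrays were dimmer and left more features unmeasured (5911) than the heart arrays (872), and the part of brightness in this was not tested.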

Other observations

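Probes named for olfactory receptors gave a signal in blood. This group was singled out after the values were seen, so it is described without a test. Of 1107 such probes, for 1101 genes, 156 (14.1%) were well above background on all 3 vehicle blood arrays and 64 (5.78%) on all 3 vehicle heart arrays. All other probes went the opposite way, with 30.4% measured on all vehicle blood and 49.8% on all vehicle heart arrays. In the amiodarone pools the olfactory receptor probes were measured on all arrays in 146 cases in blood and 44 in heart. Of 160 olfactory receptor genes tested in the vehicle contrast 156 (97.5%) were called higher in blood and 0 in heart. Over all features 26.7% were called higher in blood. The olfactory receptor genes tested had a median difference of -4.81, and 126 were called higher in blood in the amiodarone arrays. A gene enters this count only if measured on all arrays of one tissue, so the share says little about the 1101 genes as a whole. Olr1523 was at 5.74, 5.52 and 4.74 in the 3 blood pools, at least 635-fold over heart, and Or5aq6 at 4.02, 4.17 and 4.62, at least 304-fold. Which transcripts these probes bind was not tested.

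Probes of one gene did not always point the same way. Of 2304 genes with more than one passing probe, 593 had probes of opposite sign and 97 had probes called in opposite directions. Sln and Col1a1 are named examples.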
